A study of Mus musculus with 7 samples.

Results

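The 10 genes described here encode glucose transporters and enzymes of glycolysis: the transporters Slc2a1 and Slc2a3, the hexokinases Hk1 and Hk2, and Gpi1, Aldoa, Tpi1, Pgk1, Eno1 and Ldha, which act after hexokinase. They were chosen by name, and all 10 were found among the 16734 genes with RNA levels in whole mouse thymus. Levels are given as RPKM, a read count normalised for exon length and library depth. Each of the 10 genes averaged 1 RPKM or more over all libraries and so entered the test, which covered 10498 genes. Hk2 did so only through the group where it was highest, as given below.

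The study compared mice homozygous for a mutation named for zinc finger 4 of Ikaros (ZnF4-/-, 2 libraries), mice homozygous for a mutation named for zinc finger 1 (ZnF1-/-, 2 libraries) and C57BL/6 wild-type mice (wt, 3 libraries), all 4 weeks old and without any stated treatment. Ikaros, the product of Ikzf1, is a DNA-binding zinc finger protein of developing lymphocytes. The labels do not give how the alleles were built, the background strain of the mutants, the sex of the mice, or whether animals were pooled. They also do not say whether wt 2A and 2B came from separate animals, so the spread between that pair, which enters the p-values, may be technical. The levels of sex-linked transcripts given below differ between the libraries numbered 1 and 2 in each genotype.

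In glycolysis, glucose enters the cell through facilitative transporters, is phosphorylated by hexokinase, and is then turned into pyruvate by a chain of enzymes in the cytosol. Lactate dehydrogenase reduces pyruvate to lactate, which restores the NAD+ that the pathway needs. In the thymus, the immature cells that proliferate after making a T-cell receptor beta chain are known for high glucose uptake, while the more numerous small cells with both CD4 and CD8 are mostly quiescent. Whole thymus was measured here, so a lower share of a cell type and less RNA of a gene per cell cannot be told apart.

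Replicate number 1 of each genotype was read on one instrument with 76 bp reads, and the libraries numbered 2 (2A and 2B in wt) were read on another with 50 bp reads. Values of a group are given below with number 1 before number 2. This split was the strongest in the table, with 47.9% of the variance on the first principal component, and ZnF4-/- libraries stood apart on the second, with 28.9%. The X-inactivation transcript Xist lay at 90.6 to 109 RPKM in the libraries numbered 1 and at 0.01 to 0.03 RPKM in those numbered 2, whereas the Y-linked Ddx3y lay at 0 to 0.01 RPKM in the libraries numbered 1 and at 13.2 to 17.4 RPKM in those numbered 2. Read length, instrument and sex therefore cannot be told apart. Ikzf1 itself had 238 and 257 RPKM in ZnF4-/- thymus, 183 and 194 RPKM in ZnF1-/- thymus, and 142, 175 and 170 RPKM in wt thymus. Its value covers all exons together, so it does not check the mutations.

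Several of these enzymes have near-identical copies elsewhere in the genome, which bears on how a short read from them can be placed. For each gene, the annotated coding transcript nearest in length to the deposited gene length was taken. Every 50-base and 76-base window of it was looked up in the mouse genome (NCBIM37, the assembly behind mm9), counting exact matches only. For Gpi1 that transcript had 2037 bases beside a deposited length of 2874, so part of the measured gene was not looked up. Of the 50-base windows, 7.1% of Pgk1, 41.9% of Eno1, 66.2% of Ldha, 68.6% of Gpi1, 76.4% of Tpi1 and 85.2% of Aldoa occurred nowhere else. With 76 bases the shares were 8.69% for Pgk1, 49.6% for Eno1, 91.2% for Ldha, 82.6% for Gpi1, 87.7% for Tpi1 and 98.7% for Aldoa. In contrast, the windows of Slc2a1, Slc2a3, Hk1 and Hk2 were all unique, apart from 2 of the 4229 50-base windows of Hk1. Copies with at least 90% identity over at least 50% of the transcript numbered 10 for Ldha, 6 for Eno1, 4 for Aldoa, 2 each for Pgk1 and Tpi1, and 1 for Gpi1. How the deposited values treat reads that match several places is not given in the sources used here.

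The following 76-base coding stretches, 1 each for 5 of the enzymes with copies, are shown to make this concrete. Capitals mark 50 bases that occur exactly at 2 or more places in the genome. The 76 bases as a whole occur only at the gene. The stretches lie in Gpi1 exon 1 of 18 (chr7:35015119-35015194, minus strand), Aldoa exon 6 of 10 (chr7:133940194-133940269, minus strand), Tpi1 exon 7 of 7 (chr6:124761330-124761405, minus strand), Eno1 exon 4 of 8 (chr4:149620712-149620787, plus strand) and Ldha exon 3 of 8 (chr7:54104377-54104452, plus strand), all in NCBIM37.
Gpi1: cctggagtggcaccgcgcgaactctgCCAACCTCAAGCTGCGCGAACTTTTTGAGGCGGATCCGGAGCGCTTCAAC
Aldoa: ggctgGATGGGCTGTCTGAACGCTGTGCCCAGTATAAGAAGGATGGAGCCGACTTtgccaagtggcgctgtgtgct
Tpi1: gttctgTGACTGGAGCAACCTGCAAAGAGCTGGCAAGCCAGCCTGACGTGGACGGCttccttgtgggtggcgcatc
Eno1: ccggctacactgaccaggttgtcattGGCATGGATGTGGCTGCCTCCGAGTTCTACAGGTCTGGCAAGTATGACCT
Ldha: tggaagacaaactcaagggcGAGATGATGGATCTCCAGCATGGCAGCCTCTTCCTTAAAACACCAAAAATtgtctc
The 50 capital bases occur at 2 places for Gpi1, Aldoa and Tpi1, at 3 for Eno1 and at 4 for Ldha, each count including the gene itself.

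Averaged over the 7 libraries, the levels ran in the order Ldha (72.8 RPKM), Aldoa (39.8 RPKM), Hk1 (28.8 RPKM), Gpi1 (19.1 RPKM), Tpi1 (18.8 RPKM), Slc2a1 (7.97 RPKM), Slc2a3 (7.13 RPKM), Eno1 (3.30 RPKM), Pgk1 (2.36 RPKM) and Hk2 (1.06 RPKM). Ldha lay above 97.7% of all listed genes by mean RPKM, and Hk2 above 37.7%. The range of Ldha over the libraries did not meet that of Aldoa, nor did Tpi1 meet Slc2a1, Slc2a3 meet Eno1, or Pgk1 meet Hk2. The other neighbours in this order overlapped. The enzymes with the fewest unique windows, Pgk1 and Eno1, were also listed at the lowest levels of the enzymes after hexokinase.

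**Figure D1:**
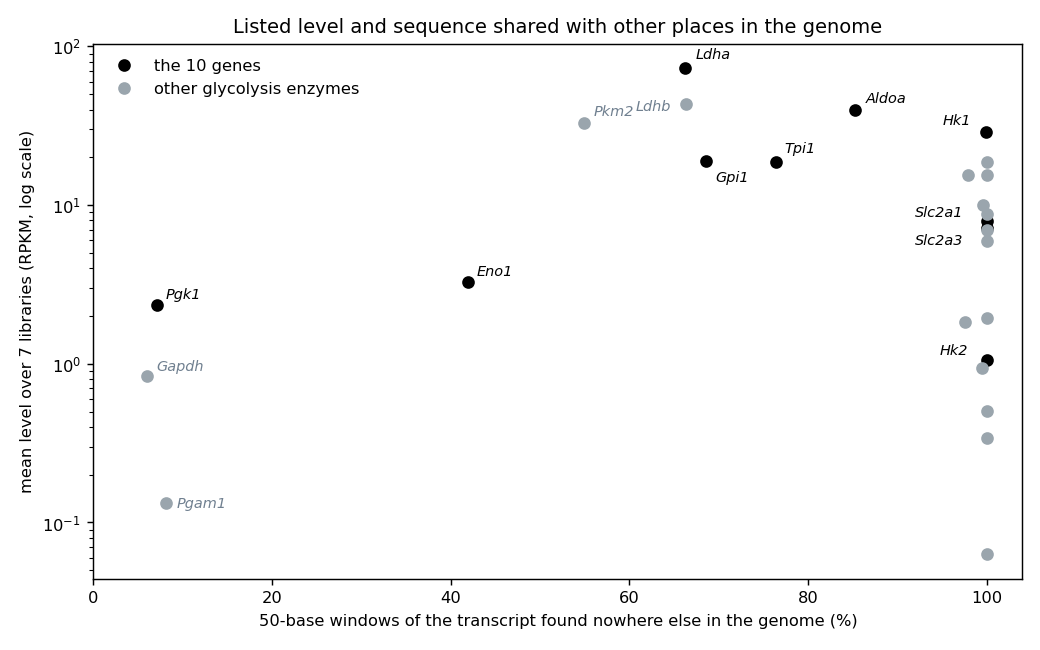
Mean level over 7 libraries (RPKM, log scale) against the share of 50-base transcript windows found nowhere else in the genome (%), for the 10 genes (black) and other glycolysis enzymes above 0.05 RPKM (grey, named where under 90% of windows are unique). Gapdh, Pgam1 and Pgk1 sit at the far left, with under 10% of windows unique and means of 0.833, 0.133 and 2.36 RPKM.

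Other steps of the pathway differed in this. Gapdh, the enzyme between Tpi1 and Pgk1, had 124 near copies and 6.05% unique 50-base windows, and was listed at 0.79 and 0.45 RPKM in ZnF4-/- thymus, 1.42 and 0.73 RPKM in ZnF1-/- thymus, and 0.92, 0.87 and 0.65 RPKM in wt thymus. Pgam1, the mutase between Pgk1 and Eno1, had 8.14% unique windows and at most 0.30 RPKM in any library. By contrast, Pkm2 (pyruvate kinase), with 54.97% unique 50-base windows, averaged 32.9 RPKM, and Ldhb, with 66.4%, averaged 43.3 RPKM. Gapdh and Pgam1 fell under the filter of a mean of 1 RPKM and were not tested. Whether lost reads set these levels was not tested, so levels of the enzymes with shared sequence are given as listed, and their order relative to Hk1, Hk2 and the transporters holds for the listed values only.

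In ZnF4-/- thymus against wt thymus, none of the 10 genes passed the test (limma on log2(RPKM + 0.5), p adjusted over all 10498 genes, threshold 0.05; called below means past it). Over all tested genes, 2.54% were called, or 267 genes. At an unadjusted p under 0.05 the count was 0 of 10, beside 1063 of all 10498 genes. With the replicate number as a block it was 1 of 10, Hk1, beside 2149 of all genes, with 0 called against 8.22% of all genes. Log2 differences ranged from -0.33 (Pgk1) to 0.36 (Hk2), with a median of 0.01 beside -0.05 over all tested genes. The 95% intervals of the 10 genes allowed folds between 0.517 (Pgk1) and 2.21 (Hk1), with narrower intervals for other genes. Without wt replicate 1, the log2 difference was -0.08 for Pgk1 and -0.05 for Hk1. That fit leaves wt with libraries numbered 2 alone, so it mixes genotype with replicate number.

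In ZnF1-/- thymus against wt thymus, again none of the 10 genes was called, against 0.0857% of all tested genes, or 9 genes. Of the 10, Ldha alone had an unadjusted p under 0.05, both without the block and with it. Over all 10498 genes, 404 had one without the block and 917 with it. With the replicate block 0.876% of all genes, but 0 of the 10, were called. Log2 differences ranged from -0.38 (Ldha) to 0.18 (Slc2a3), with a median of -0.01 beside -0.02 over all tested genes. The intervals allowed folds between 0.544 (Pgk1) and 1.97 (Hk1). Without wt replicate 1, the log2 difference was -0.01 for Pgk1 (-0.25 with it) and -0.22 for Hk1 (0.12 with it). This fit again sets wt libraries numbered 2 alone against mutant libraries of both numbers, so it mixes genotype with number.

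In ZnF4-/- thymus against ZnF1-/- thymus, 0 of the 10 were called, against 2.34% of all tested genes (246 genes). With the block 0 of the 10 were called against 7.29%. Hk2 had an unadjusted p under 0.05 without the block, and Hk2 and Ldha had one with it. Over all 10498 genes, 963 had one without the block and 2123 with it. Log2 differences ranged from -0.19 (Eno1) to 0.50 (Hk2), with a median of 0.07 beside -0.03 over all genes. All 3 comparisons share libraries, so they are not independent of each other.

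**Figure D2:**
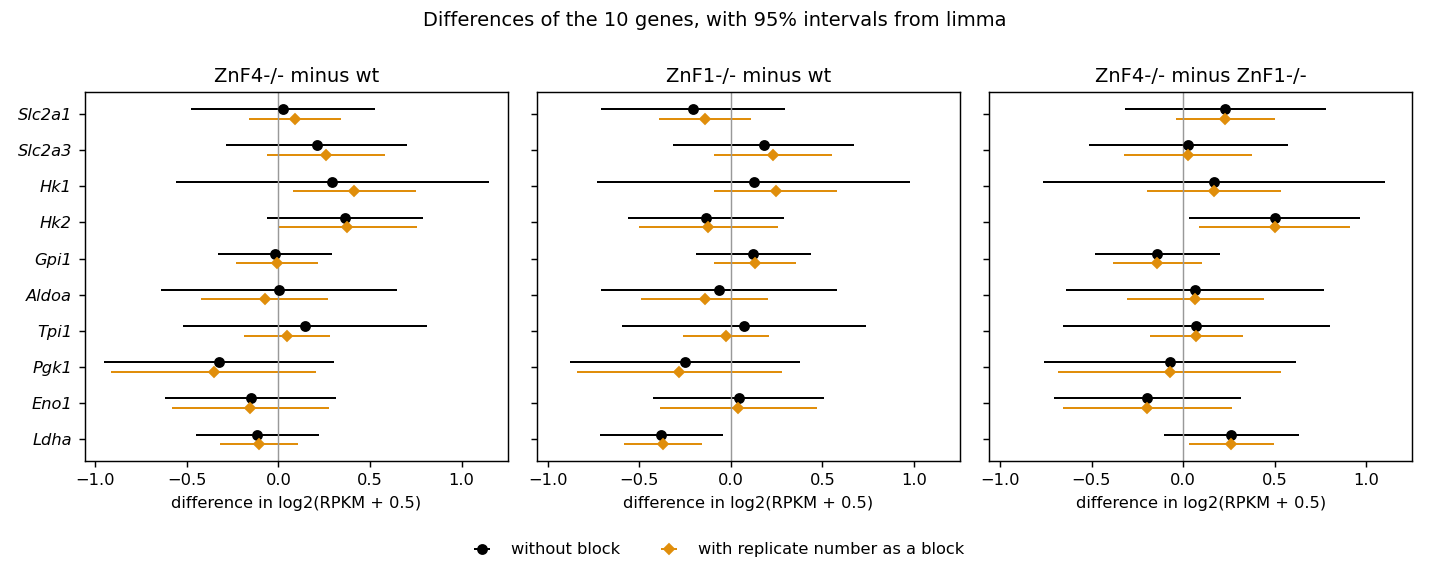
Difference in log2(RPKM + 0.5) for each gene, with 95% intervals from limma, for ZnF4-/- minus wt, ZnF1-/- minus wt and ZnF4-/- minus ZnF1-/- (7 libraries in 1 fit), without the replicate number as a block (black circles) and with it (orange diamonds). Hk2 has the highest difference in ZnF4-/- minus ZnF1-/- (0.50), Ldha the lowest in ZnF1-/- minus wt (-0.38), and 0 of the 10 genes passed the adjusted threshold in any panel.

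Some genes were separated without overlap all the same. The libraries of the 2 groups did not overlap for 2 of the 10 genes in ZnF4-/- against wt (Hk2 and Ldha), beside 23.1% of all tested genes. They did not overlap for 3 of the 10 in ZnF1-/- against wt, beside 13.8% of all genes, and for 3 of the 10 in ZnF4-/- against ZnF1-/-, beside 32% of all genes (Hk2, Gpi1 and Ldha in both). The counts are thus near the background in both comparisons of ZnF4-/- thymus, and with 10 genes they set none apart.

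No difference beyond the spread between libraries was detected for the glucose transporters. Slc2a1 (GLUT1, the basal transporter of most cells; chr4:118781316-118809935) had 6.91 and 10.03 RPKM in ZnF4-/- thymus, 6.02 and 8.19 RPKM in ZnF1-/- thymus, and 7.15, 8.48 and 9.03 RPKM in wt thymus. The first value in each group, from the 76 bp libraries, was the lowest, and the groups overlapped. Within each replicate number, ZnF1-/- had the lowest value. Slc2a3 (GLUT3, a transporter of high affinity; chr6:122677827-122751658) had 6.49 and 8.82 RPKM in ZnF4-/- thymus, 5.98 and 9.16 RPKM in ZnF1-/- thymus, and 6.31, 6.36 and 6.80 RPKM in wt thymus. Both mutants numbered 2 were above every wt library, whereas in number 1 ZnF1-/- lay under wt. The fold relative to wt was bounded between 0.719 and 1.44 for Slc2a1 and between 0.82 and 1.63 for Slc2a3 in ZnF4-/- thymus, and between 0.613 and 1.23 for Slc2a1 and 0.804 and 1.60 for Slc2a3 in ZnF1-/- thymus (95% intervals).

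The ratio of Slc2a3 to Slc2a1 RPKM was 0.939 and 0.879 in ZnF4-/- thymus, 0.993 and 1.12 in ZnF1-/- thymus, and 0.883, 0.75 and 0.753 in wt thymus. The wt libraries numbered 2 had the lowest ratios. This ratio within a library does not depend on how that library was scaled.

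**Figure D3:**
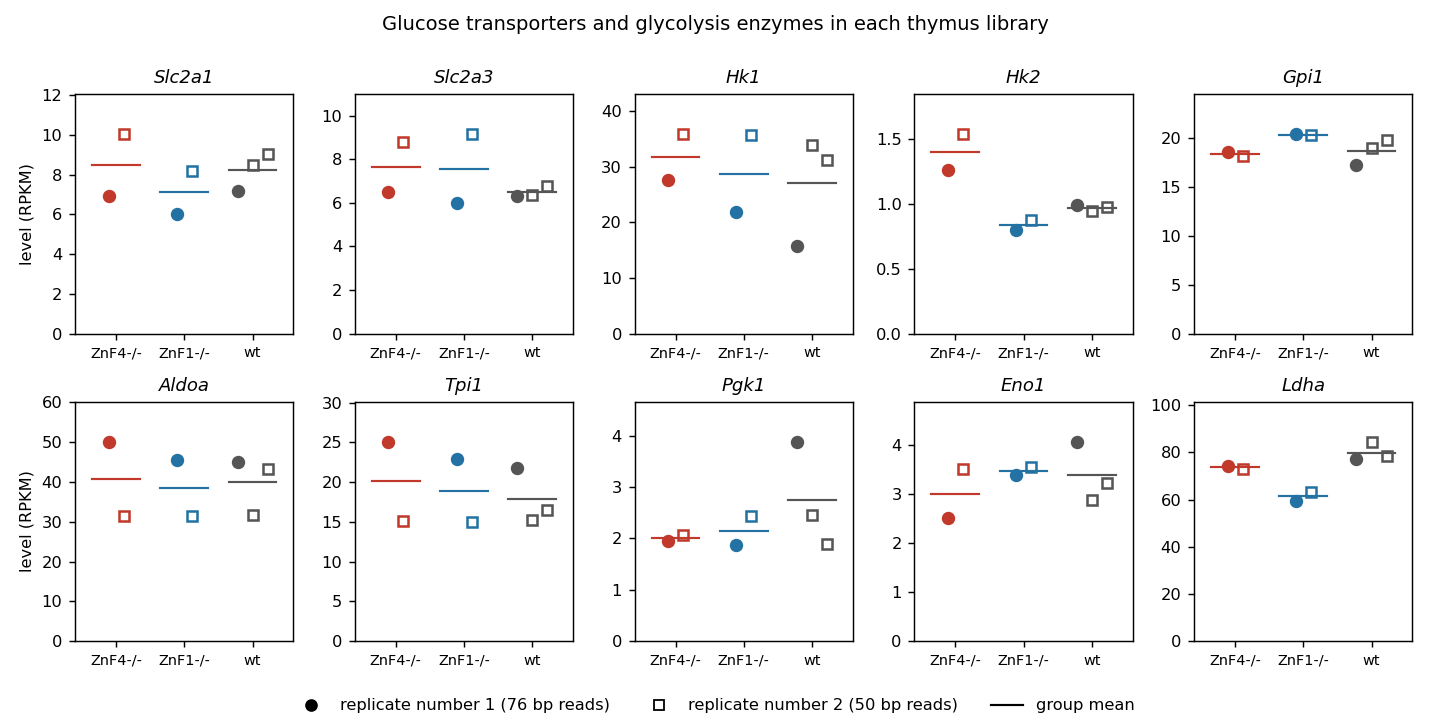
Level (RPKM, axes from 0) of each of the 10 genes in each library, with ZnF4-/- (red), ZnF1-/- (blue) and wt (grey); filled circles are replicate number 1 (76 bp reads), open squares number 2 (50 bp reads), and lines group means. Hk1 lies between 15.8 and 27.6 RPKM in the circles and between 31.2 and 35.8 RPKM in the squares, Tpi1 the other way round, and ZnF1-/- libraries have the lowest Ldha.

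The hexokinases differed strongly in level. Hk1 (the hexokinase of most tissues; chr10:61731603-61842656) had 27.6 and 35.8 RPKM in ZnF4-/- thymus, 21.9 and 35.6 RPKM in ZnF1-/- thymus, and 15.8, 33.9 and 31.2 RPKM in wt thymus. The 3 libraries numbered 1 were the lowest, and the genotypes were spread most widely among them. The log2 difference of ZnF4-/- from wt was 0.79 in number 1 and 0.14 in number 2. The pooled difference was 0.29 ± 0.36 (SE; adjusted p = 0.965) without the block and 0.41 ± 0.15 (adjusted p = 0.149) with it. Without wt replicate 1 and without the block it was -0.05. That fit sets wt libraries numbered 2 alone against ZnF4-/- libraries of both numbers. Hk1 was 0.73 higher in number 2 on the log2 scale, so this value mixes genotype with replicate number.

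Hk2 (an inducible hexokinase of proliferating and insulin-sensitive cells; chr6:82675019-82724448) had 1.26 and 1.54 RPKM in ZnF4-/- thymus, 0.80 and 0.88 RPKM in ZnF1-/- thymus, and 0.99, 0.95 and 0.98 RPKM in wt thymus. Both ZnF4-/- libraries were the highest of the 7, both ZnF1-/- libraries were the lowest, and no group overlapped another. Hk2 averaged 1.4 RPKM in ZnF4-/- thymus, 0.84 RPKM in ZnF1-/- thymus and 0.973 RPKM in wt thymus. It passed the filter of a mean of 1 RPKM only through ZnF4-/- thymus, so its differences there are a description. The difference of ZnF4-/- from wt was 0.36 ± 0.18 on the log2(RPKM + 0.5) scale (SE; adjusted p = 0.636, and 0.248 with the block), which understates the change of so low a gene. That of ZnF4-/- from ZnF1-/- was 0.50 ± 0.20 (adjusted p = 0.478, and 0.165 with the block). Within the replicate numbers the difference from ZnF1-/- was 0.44 in number 1 and 0.56 in number 2.

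Few reads lay behind these Hk2 values. In the 76 bp libraries, where low values fall on steps of whole reads, the step size gave an estimated 6300000 reads for ZnF4-/-, 14300000 reads for ZnF1-/- and 20200000 reads for wt. At that depth Hk2 rested on an estimated 44 reads in ZnF4-/-, 63 in ZnF1-/- and 111 in wt, a counting error of 15.1%, 12.6% and 9.51% of the value. The 50 bp libraries showed no such steps, so their depth is unknown. The ratio of Hk2 to Hk1 RPKM stayed between 0.0247 and 0.0629 in the 7 libraries.

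Gpi1, Aldoa and Tpi1, which carry the sugar from glucose 6-phosphate to the 3-carbon stage, lay at like levels across the genotypes within each replicate number, apart from Aldoa in wt 2B. Gpi1 (glucose-6-phosphate isomerase; chr7:34987141-35015308) had 18.6 and 18.2 RPKM in ZnF4-/- thymus, 20.4 and 20.3 RPKM in ZnF1-/- thymus, and 17.2, 18.97 and 19.9 RPKM in wt thymus. Both ZnF1-/- libraries were just above all others, by 0.12 ± 0.13 relative to wt (log2 difference, SE; adjusted p = 0.9999). Its folds had the narrowest interval in each comparison, from 0.795 to 1.23 in ZnF4-/- and from 0.877 to 1.35 in ZnF1-/- relative to wt.

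Aldoa (aldolase A, which splits fructose 1,6-bisphosphate; chr7:133938748-133944265) had 50.1 and 31.4 RPKM in ZnF4-/- thymus, 45.5 and 31.5 RPKM in ZnF1-/- thymus, and 45.0, 31.8 and 43.3 RPKM in wt thymus. The libraries numbered 1 were the highest, and wt 2B was close to them while the other libraries numbered 2 sat together. Tpi1 (triose phosphate isomerase; chr6:124760604-124764314) had 25.1 and 15.2 RPKM in ZnF4-/- thymus, 22.9 and 14.97 RPKM in ZnF1-/- thymus, and 21.8, 15.3 and 16.5 RPKM in wt thymus. Here the libraries split by replicate number without overlap. The mutant libraries were above wt in number 1 and just under both wt libraries in number 2.

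Pgk1 and Eno1, the enzymes with the most shared sequence, had overlapping values in all genotypes. Pgk1 (phosphoglycerate kinase, an ATP-producing step; chrX:103382439-103399038) had 1.94 and 2.07 RPKM in ZnF4-/- thymus, 1.87 and 2.43 RPKM in ZnF1-/- thymus, and 3.88, 2.45 and 1.89 RPKM in wt thymus. The single high value was wt replicate 1, and the other 6 libraries lay within 1.87 to 2.45 RPKM. Eno1 (alpha-enolase; chr4:149610830-149622988) had 2.50 and 3.50 RPKM in ZnF4-/- thymus, 3.39 and 3.54 RPKM in ZnF1-/- thymus, and 4.06, 2.87 and 3.21 RPKM in wt thymus. Its highest and lowest values were both in number 1, in wt and ZnF4-/- thymus. An estimated 22 reads in ZnF4-/-, 49 in ZnF1-/- and 142 in wt lay behind the number 1 values of Pgk1.

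Ldha (lactate dehydrogenase A, the form that favours lactate production; chr7:54096845-54110997) had 74.3 and 73.0 RPKM in ZnF4-/- thymus, 59.4 and 63.2 RPKM in ZnF1-/- thymus, and 77.0, 84.5 and 78.3 RPKM in wt thymus. The ZnF1-/- libraries were the lowest, the ZnF4-/- libraries came next, and the 3 groups did not overlap. Ldha averaged 61.3 ± 2.70 RPKM in ZnF1-/- thymus (SD, n = 2) and 79.9 ± 4.00 RPKM in wt thymus (SD, n = 3). The log2 difference of ZnF1-/- from wt was -0.38 ± 0.14 (SE; adjusted p = 0.9999, and 0.158 with the block), and it was -0.37 in number 1 and -0.36 in number 2. The 95% interval of the fold ran from 0.609 to 0.971. So the difference was alike in both replicate numbers, but it did not pass the test over all genes.

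For the lactate dehydrogenase pair, Ldhb encodes the form that favours pyruvate. Ldhb had 32.9 and 30.2 RPKM in ZnF4-/- thymus, 31.8 and 51.3 RPKM in ZnF1-/- thymus, and 39.8, 56.4 and 60.3 RPKM in wt thymus. The ratio of Ldha to Ldhb RPKM was 2.26 and 2.42 in ZnF4-/- thymus, 1.87 and 1.23 in ZnF1-/- thymus, and 1.93, 1.5 and 1.3 in wt thymus. Both ZnF4-/- libraries had the highest ratios. The log2 difference of Ldhb between ZnF4-/- and wt was -0.70 ± 0.26 (SE; adjusted p = 0.386, and 0.0613 with the block), so it did not pass the test either.

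In the fit with both terms, number 2 against number 1 was called for 4 of the 10 genes, a share near the 41.3% of all tested genes. This contrast was added after the values had been seen. Hk1 (0.73 ± 0.12 on the log2 scale, adjusted p = 0.0046) and Slc2a1 (0.39 ± 0.09, adjusted p = 0.0135) were higher in number 2. Tpi1 (-0.57 ± 0.09, adjusted p = 0.00354) and Aldoa (-0.47 ± 0.13, adjusted p = 0.0208) were lower in it (SE throughout). The median over all tested genes was 0.20 higher in number 2, and relative to that shift Hk1 and Slc2a1 stayed above it.

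The 10 genes did not move together. With each gene centred within its replicate number, the correlation between 2 of them over the 7 libraries had a median of 0.0601 over 45 pairs, 24 of them above 0, and ranged from -0.834 to 0.862. The genotype difference from wt had the same sign in both replicate numbers for 5 of the 10 genes in ZnF4-/- and for 5 of the 10 in ZnF1-/-. The summed RPKM of the 10 genes was 214.9 and 199.6 in ZnF4-/- thymus, 188.2 and 189.8 in ZnF1-/- thymus, and 199.2, 205.6 and 211.1 in wt thymus. Both ZnF1-/- libraries had the lowest sums, which rests on Ldha. Without Ldha the sums were 140.5 and 126.6 RPKM in ZnF4-/- thymus, 128.8 and 126.6 RPKM in ZnF1-/- thymus, and 122.2, 121.1 and 132.8 RPKM in wt thymus.

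Among the 8056 other tested genes whose centred values had an SD of at least 0.1, those whose centred profile was most like the mean of the 10 were Magee1 (r = 0.99), 2610020H08Rik (r = 0.979), Gpr65 (r = 0.974), Tbc1d19 (r = 0.969) and Tmem229b (r = 0.967). For single genes the most alike were Itgb3 for Hk2 (r = 0.999), Rhbdd2 for Hk1 (r = 0.994), Tmem87b for Pgk1 (r = 0.992), Rbbp6 for Slc2a1 (r = 0.991), Man1a for Ldha (r = 0.988), Mycn for Gpi1 (r = 0.987), 2810046L04Rik for Tpi1 (r = 0.985), Vmp1 for Eno1 (r = 0.984), D3Ertd254e for Slc2a3 (r = 0.962) and Srf for Aldoa (r = 0.924). Each is the highest of at least 8056 correlations across only 7 libraries, so these names are a description.

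Around the 10 genes, 8 further lists held genes of glucose metabolism, transcription factors of glycolysis genes and hypoxia-responsive genes outside glycolysis. Of their 65 tested genes, 4 were called in ZnF4-/- against wt, or 6.15% beside 2.54% of all genes. With the block 7 of the 65 were called, or 10.8% beside 8.22%. Pck2 and Epas1, both among the called genes, passed the filter of a mean of 1 RPKM only through ZnF4-/- thymus. Pck2 averaged 0.887 RPKM in wt and 0.6 RPKM in ZnF1-/- thymus, and Epas1 0.78 and 0.715 RPKM. These shares and the direction of those calls thus depend in part on the filter. Of the 11 tested genes among the other glycolysis enzymes, 1 rose and 0 fell in ZnF4-/- against wt, with a median log2 difference of -0.07. Of the 3 other glucose transporters, 10 regulators of glycolytic flux, 10 genes of lactate and pyruvate handling and 8 of the pentose phosphate pathway tested, limma called 0 of these 31 genes without the block (4 at an unadjusted p under 0.05) and 2 with it. Among 3 gluconeogenesis genes, 9 transcription factors of glycolysis genes and 11 hypoxia-responsive genes outside glycolysis, 1 each rose and 0 fell. In ZnF1-/- against wt, limma called 0 of the 65 tested genes of these lists, and 0 had an unadjusted p under 0.05. With the block it also called 0, with 3 at an unadjusted p under 0.05. Over all 10498 genes, 1063 had an unadjusted p under 0.05 in ZnF4-/- against wt without the block. In ZnF1-/- against wt 404 had one without the block and 917 with it.

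Pck2, the mitochondrial phosphoenolpyruvate carboxykinase, rose most. It passed the filter of a mean of 1 RPKM only through ZnF4-/- thymus, so its differences there are a description. It had 4.41 and 5.14 RPKM in ZnF4-/- thymus, 0.49 and 0.71 RPKM in ZnF1-/- thymus, and 0.66, 1.09 and 0.91 RPKM in wt thymus. Both ZnF4-/- libraries stood far above the rest, by 1.94 ± 0.21 relative to wt (adjusted p = 0.00466) and by 2.27 ± 0.23 relative to ZnF1-/- (log2 differences, SE; adjusted p = 0.00336). The call against wt was lost without ZnF4-/- replicate 2, at an adjusted p of 0.0605.

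Ldhd, a mitochondrial dehydrogenase of D-lactate, had 3.14 and 3.48 RPKM in ZnF4-/- thymus, 1.56 and 1.76 RPKM in ZnF1-/- thymus, and 1.12, 1.48 and 1.1 RPKM in wt thymus. It rose in ZnF4-/- against wt by 1.14 ± 0.18 (log2, SE; adjusted p = 0.0199). Eno3, the muscle form of enolase, had 9.36 and 12.4 RPKM in ZnF4-/- thymus, 4.65 and 6.63 RPKM in ZnF1-/- thymus, and 4.77, 6.05 and 5.14 RPKM in wt thymus. Its difference from wt was 0.96 ± 0.21 (adjusted p = 0.0688), and it passed the test with the block (adjusted p = 0.00194). Unlike Eno1, all 50-base windows of Eno3 and Ldhd were unique.

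Epas1, the hypoxia-inducible factor HIF-2 alpha, had 2.39 and 3.51 RPKM in ZnF4-/- thymus, 0.63 and 0.80 RPKM in ZnF1-/- thymus, and 0.52, 0.93 and 0.89 RPKM in wt thymus. Like Pck2, Epas1 passed the filter of a mean of 1 RPKM only through ZnF4-/- thymus, so its differences there are a description. They were 1.43 ± 0.25 against wt (log2, SE, limma adjusted p = 0.0298) and 1.49 ± 0.27 against ZnF1-/- (adjusted p = 0.0368). Egln3, a prolyl hydroxylase that acts on these factors, had 17.7 and 15.7 RPKM in ZnF4-/- thymus, 10.2 and 10.3 RPKM in ZnF1-/- thymus, and 8.56, 9.46 and 9.51 RPKM in wt thymus. It rose by 0.83 ± 0.13 against wt (log2, SE; adjusted p = 0.0229). The calls of Ldhd, Epas1 and Egln3 against wt were each lost without ZnF4-/- replicate 1, ZnF4-/- replicate 2 or wt 2B, and with wt 2A and 2B averaged, and those of Epas1 and Egln3 also without wt 2A. The call of Epas1 against ZnF1-/- held in 7 of 16 alternatives and in 1 of the 7 fits that leave out a library, with an adjusted p up to 0.242. Over all alternatives the adjusted p against wt reached 0.175 for Ldhd, 0.225 for Epas1 and 0.203 for Egln3.

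In the other direction, Pdk1 and H6pd fell in ZnF4-/- thymus in the fit with the block alone. Pdk1, a kinase that holds pyruvate out of the mitochondrial pyruvate dehydrogenase reaction, had 16.4 and 14.7 RPKM in ZnF4-/- thymus, 24.3 and 21.2 RPKM in ZnF1-/- thymus, and 23.5, 22.9 and 21.6 RPKM in wt thymus. Its log2 difference from wt was -0.53 ± 0.14 (SE; adjusted p = 0.147, and 0.0085 with the block). H6pd, a dehydrogenase of the endoplasmic reticulum that feeds a pentose phosphate branch, had 18.0 and 19.9 RPKM in ZnF4-/- thymus, 25.2 and 34.6 RPKM in ZnF1-/- thymus, and 23.4, 30.4 and 29.0 RPKM in wt thymus, with a log2 difference from wt of -0.53 ± 0.19 (SE; adjusted p = 0.377, and 0.026 with the block).

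**Figure D4:**
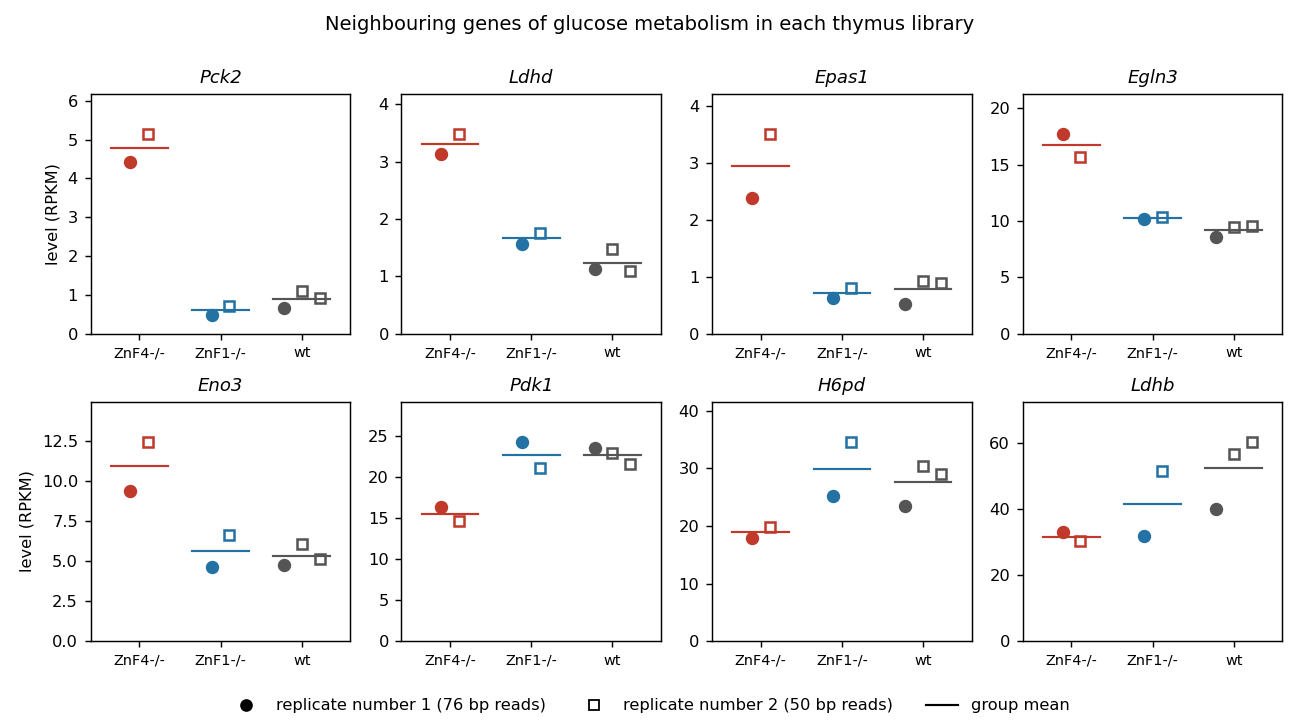
Level (RPKM, axes from 0) of 8 genes of the further lists in each library: ZnF4-/- (red), ZnF1-/- (blue) and wt (grey). Epas1 is from the list of transcription factors and Egln3 from that of hypoxia-responsive genes outside glycolysis. Filled circles are replicate number 1, open squares number 2, and lines group means. For Pck2, Ldhd, Epas1, Egln3 and Eno3 both ZnF4-/- libraries lie above all others (Pck2 4.41 and 5.14 RPKM, others at most 1.09 RPKM), and for Pdk1 and H6pd both lie below.

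The most abundant genes of each list were also measured in every library. Among other glycolysis enzymes these were Ldhb, given above, Pkm2 (pyruvate kinase), with 31.1 to 36.5 RPKM over the 7 libraries, and Pfkp (platelet phosphofructokinase), with 13.4 to 23.1 RPKM. Among the transporters they were Slc2a9 (1.53 to 4.1 RPKM), Slc5a2 (2.1 to 2.95 RPKM) and Slc2a8 (1.07 to 2.78 RPKM), so Slc2a1 and Slc2a3 were the most abundant transporters of glucose listed. Txnip, which lowers glucose uptake, led the flux regulators with 124.8 to 217.5 RPKM, ahead of Pdk1 and Pfkfb3 (11.1 to 17.4 RPKM). Bsg, a partner of lactate transporters (41.2 to 71.5 RPKM), Pdha1 (31.9 to 46.1 RPKM) and the lactate transporter Slc16a1 (25.99 to 39.9 RPKM) led lactate and pyruvate handling. Tkt (46.7 to 77.0 RPKM), Taldo1 (39.0 to 68.9 RPKM) and Pgls (25.2 to 63.2 RPKM) led the pentose phosphate pathway. None of these abundant genes other than Pdk1 was called in any comparison, with or without the block.

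Sums of marker genes, which do not measure cell numbers, also differed between the libraries. The summed RPKM of 13 proliferation markers was 539 and 567 in ZnF4-/- thymus, 649 and 663 in ZnF1-/- thymus, and 640, 656 and 645 in wt thymus. That of 10 markers of CD4 and CD8 double-positive thymocytes was 2194 and 2646 in ZnF4-/- thymus, 3019 and 3393 in ZnF1-/- thymus, and 2888, 3455 and 3581 in wt thymus. Both sums were lowest in the ZnF4-/- libraries, but of these markers limma called 0 in ZnF4-/- against wt without the block, and 1 proliferation and 2 double-positive markers with it. By mean level, the double-positive markers, defining for the labelled tissue, ran from Cd1d1 (8.5 to 12.5 RPKM over the 7 libraries) to Rag1 (644 to 965 RPKM).

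The erythroid and the macrophage sums were highest in ZnF4-/- thymus. The 9 erythroid markers, 4 of them under a mean of 1 RPKM, summed to 95.6 and 115.8 RPKM in ZnF4-/- thymus, 20.2 and 55.7 RPKM in ZnF1-/- thymus, and 22.7, 58.7 and 37.7 RPKM in wt thymus. The 11 macrophage and dendritic cell markers, again 4 of them under a mean of 1 RPKM, summed to 94.4 and 121.4 RPKM in ZnF4-/- thymus, 45.5 and 69.6 RPKM in ZnF1-/- thymus, and 72.9, 76.6 and 54.8 RPKM in wt thymus. Hbb-b1 and Hbb-b2 make up most of the erythroid sum (43.4 and 44.0 RPKM in ZnF4-/- replicate 1), and Lyz2 most of the macrophage sum (56.8 RPKM in that library). Without the block none of these erythroid or macrophage markers was called in ZnF4-/- against wt, and 2 and 1 were with it. The B cell markers had sums of 16.2 and 20.1 RPKM in ZnF4-/- thymus, 26.9 and 36.5 RPKM in ZnF1-/- thymus, and 20.5, 26.1 and 23.6 RPKM in wt thymus. These sums do not follow most of their markers. Of the 4 tested, 3 were lower and 1 higher in ZnF1-/- against wt, with a median log2 difference of -1.16. In ZnF4-/- against ZnF1-/-, 3 were higher and 1 lower, and against wt 2 were higher and 2 lower. The part that these shifts have in the values of Hk2, Ldhb, Pck2, Ldhd, Eno3, Epas1, Egln3, Pdk1 and H6pd was not tested.

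In ZnF4-/- against wt, 8 of 10 tested markers of thymocytes without CD4 and CD8 were higher and 2 lower. Of 11 markers of thymocytes with CD4 or CD8 alone, 7 were higher and 4 lower. Of 3 markers of thymic epithelium and stroma, 2 were higher and 1 lower. The single markers named next were those called, and do not stand for their lists. Krt18 and S1pr1 rose in ZnF4-/- against both wt and ZnF1-/-. Against wt they rose by 3.17 and 1.05 on the log2 scale (limma adjusted p = 0.00169 for Krt18 and 0.0283 for S1pr1). Kit rose in ZnF4-/- against wt (0.89, adjusted p = 0.0267). Against ZnF1-/-, the B cell gene Cd79a (1.36, adjusted p = 0.0148) rose and Cd79b fell by 1.36 (adjusted p = 0.0189). With the block, Cd79a and Blk fell and Cd79b rose in ZnF1-/- against wt (highest adjusted p 0.0407, for Blk). With the block alone, Ccr7, Il7r, Dtx1, Hbb-b1, Hbb-b2, C1qa and Ikzf1 also rose in ZnF4-/- against wt, Pcna and Cd8a fell, and Blk rose against ZnF1-/- (highest adjusted p 0.0479, for Cd8a).

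Motifs were looked up in the 250 bases before the annotated starts, since a hypoxia-inducible factor gene was among those that rose and Ikaros is the mutated factor. RefSeq promoters (GRCm38.p6) were held for 9 of the 10 genes, with 15 starts. The core of hypoxia-inducible factor sites, ACGTG or GCGTG on either strand, occurred before 11 of the 15 starts (7 of the 9 genes). It occurred in 38.6% of all 32851 promoters of that length, where 1 gene can have several starts that overlap. Stretches before starts of Eno1 and of Aldoa overlap too, and the share of all promoters was not matched for GC content. An enrichment was not tested. The E-box CACGTG, which holds an ACGTG on both strands, occurred before 1 of the 15 starts, of Ldha, beside 6.02% of all promoters. TGGGAA, an Ikaros core, occurred on either strand before 3 of the 15 starts, of Eno1 and Pgk1, beside 21.6% of all promoters. The stretches shown have the motif in capitals, with 20 bases on each side, in the direction of the gene, for the genes named most often above.
Ldha E-box beginning 145 bases before the start (chr7:46845639-46845684, plus strand): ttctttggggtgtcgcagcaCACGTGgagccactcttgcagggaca
Ldha E-box beginning 48 bases before the start (chr7:46845736-46845781, plus strand): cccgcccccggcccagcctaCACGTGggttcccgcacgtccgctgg
Hk2 core beginning 52 bases before the start (chr6:82774482-82774526, minus strand): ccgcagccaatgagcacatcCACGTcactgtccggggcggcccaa
Slc2a1 core beginning 36 bases before the start (chr4:119108689-119108733, plus strand): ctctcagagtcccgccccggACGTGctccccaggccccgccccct
Pgk1 core beginning 150 bases before the start (chrX:106186930-106186974, plus strand): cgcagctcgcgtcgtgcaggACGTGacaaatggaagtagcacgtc
In Hk2 the capitals show the core as it reads on the opposite strand. These matches describe letters and no binding was measured, and the genes with and without them alike had no call.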

How the data were processed

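RNA from cell suspensions of whole thymus was sequenced in 7 libraries. The deposited table gives RPKM per RefSeq gene; per the labels and the design text, the authors counted exonic reads in SeqMonk against mm9 and kept 1 transcript per gene. TopHat and bedtools are named in the submitters' processing notes, without versions; strand and the handling of multiply mapped reads are not given in the sources used here.

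The 10 genes and all gene lists were chosen with earlier results of these data known. Values were log2 transformed after adding 0.5 RPKM, which understates the change of low genes. Genes averaging 1 RPKM or more (10498) were fitted with limma 3.58.1 in R 4.3.3 (3 groups in 1 fit, trended prior, 4 residual and 3.26 prior degrees of freedom), with two-sided p-values adjusted by Benjamini and Hochberg at 0.05. The test was checked on simulated data.

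The labels tie the replicate number to the read length and instrument, and same-numbered libraries deviated together (r = 0.489 to 0.737 over 8 pairs), so a fit with the number as a block was the main alternative. The others were the pseudocount, the filter, scaling, the prior, averaging wt 2A and 2B, fitting 2 groups only, and leaving out each library.

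Named genes were the 10 themselves, list genes called with or without the block (25 at most, by smallest adjusted p), the 3 most abundant genes of each metabolic list, and those with the most similar profile (SD of at least 0.1). Window counts used GENCODE transcripts and NCBIM37, and near copies were found with blastn 2.17.0. Slc2a1, Hk1, Gpi1 and Tpi1 overlap an exon on the other strand, so without strand their reads and those of the overlapping genes cannot be told apart. Protein identity between isoforms was not analysed here. Some items that the naming rule would give are not reported here.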

Additional observations from a re-analysis of the deposited data

Results flagged for a closer look

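Of the 10 glucose transporter and glycolysis genes, none had a genotype difference that itself differed between the replicate numbers by limma (adjusted p from 0.0672 for Hk1 in ZnF4-/- upward; unadjusted p under 0.05 for Hk1, Pgk1 and Eno1 in ZnF4-/- and for Pgk1 in ZnF1-/-). Among the other lists 8 genes did, as an interaction of genotype and number, where the spread rests on wt 2A and 2B alone. Over all 10498 genes 4.45% did so in ZnF4-/- and 1.32% in ZnF1-/-. The values are the log2 difference from wt in number 2 minus that in number 1. In ZnF4-/-, they were -0.75 for Myc and -1.01 for Esrra, both transcription factors of glycolysis genes, -1.41 for the Notch target Dtx1, 1.77 for each of Hba-a1 and Hba-a2, and -1.28 for each of the beta globins Hbb-b1 and Hbb-b2. In ZnF1-/-, they were 1.67 for each of Hba-a1 and Hba-a2 and 1.23 for the macrophage gene Lyz2. Hba-a1 and Hba-a2, like Hbb-b1 and Hbb-b2, are near-identical copies, so each pair counts as 1 observation. No group had the 4 libraries that a search for outlying libraries needs.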

How the results depend on the processing

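No alternative brought 1 of the 10 genes past the threshold: of 497 values under 17 alternatives, 460 kept their sign and 37 turned it, 0 of them called. With the replicate block, the log2 difference turned to -0.025 for Tpi1 in ZnF1-/- and -0.0752 for Aldoa in ZnF4-/- against wt. With wt 2A and 2B averaged it turned to -0.00491 for Tpi1 and -0.0193 for Eno1 in ZnF1-/-, and to 0.00981 for Gpi1 and -0.0514 for Aldoa in ZnF4-/-. Quantile normalization turned Slc2a1 to -0.000853 and Gpi1 to 0.0379 in ZnF4-/-. In number 2, wt has both 2A and 2B, whereas each mutant has 1 library in each number. A comparison with wt without the block thus carries part of the difference between the numbers. Beyond that, the cause was not tested.

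Leaving out 1 library moved ZnF4-/- against wt between -0.331 and 0.336 for Aldoa, -0.359 and 0.0556 for Eno1, -0.0736 and 0.0265 for Gpi1, -0.0484 and 0.493 for Hk1, -0.229 and 0.278 for Slc2a1, and -0.211 and 0.497 for Tpi1. It moved ZnF1-/- against wt between -0.327 and 0.2 for Aldoa, -0.0532 and 0.165 for Eno1, -0.222 and 0.47 for Hk1, -0.413 and 0.00114 for Slc2a1, -0.109 and 0.467 for Slc2a3, and -0.229 and 0.37 for Tpi1. It moved ZnF4-/- against ZnF1-/- between -0.267 and 0.4 for Aldoa, -0.402 and 0.0129 for Eno1, -0.177 and 0.515 for Hk1, -0.227 and 0.0794 for Pgk1, -0.0226 and 0.484 for Slc2a1, -0.259 and 0.317 for Slc2a3, and -0.281 and 0.427 for Tpi1. A lone library of a group was then assumed to vary like the others. These fits have no block. Leaving out any library but wt 2A or 2B left a group with 1 replicate number alone, so the ranges mix genotype with number. Hk1, Slc2a1, Tpi1 and Aldoa were the 4 of the 10 genes called between the numbers.

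Over all genes, the block gave 863 calls in ZnF4-/- against wt (267 without it), 92 in ZnF1-/- against wt (9 without it) and 765 in ZnF4-/- against ZnF1-/- (246 without it). No filter gave 596, 3 and 576 in that order, and a filter at a mean of 5 RPKM gave 54, 4 and 51. Averaging wt 2A and 2B gave 130 in ZnF4-/- and 1 in ZnF1-/- against wt. ZnF1-/- against wt had 17 calls with a common median, 14 with quantile normalization, 14 without a trend and 5 with 2 groups alone. Leaving out 1 library gave 44 (without ZnF4-/- replicate 2) to 253 calls in ZnF4-/- against wt, 1 to 10 in ZnF1-/- against wt, and 90 to 318 in ZnF4-/- against ZnF1-/-. Hk2 has no fit at a mean of 5 RPKM, nor do Pgk1 and Eno1. Hk2 also fell under the filter of 1 RPKM, and so has no fit, without ZnF4-/- replicate 2 and with ZnF1-/- and wt alone.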
